A study of Mus musculus with 15 samples.

Results

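Levels of 10 Kruppel-like factor genes were followed in 15 RNA sequencing libraries of primary mouse astrocytes, the star-shaped glial cells that support neurons. The genes were Klf2, Klf3, Klf4, Klf5, Klf6, Klf7, Klf10, Klf11, Klf13 and Klf16, taken as the rows of these 10 symbols among the 25748 gene symbols in the count data. All 10 members passed the filter on low counts, as did 15362 genes in all. The data held 16 Klf symbols. Of the other 6, Klf9 and Klf15 belong with the glucocorticoid targets and are given briefly, and Klf1, Klf8, Klf12 and Klf14 complete the set. The members were chosen by family name with their CPM and fold changes in these libraries known, the stepwise fall of Klf10 among them, so their values are a description and carry no p-value here, and whether a member passed the threshold is stated as part of that description.

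There were 3 groups of 5 libraries. Cells of the Rg1 plus LPS group were first kept for 12 h in 80 µM ginsenoside Rg1, a steroid-like saponin of ginseng, and then given 1 µg/mL lipopolysaccharide for 6 to 8 h. In the LPS group, which the submitters label SCI for spinal cord injury, cells received the same lipopolysaccharide dose for 6 to 8 h without Rg1. Lipopolysaccharide is a component of the bacterial outer membrane that triggers inflammatory signalling. The control group was untreated. All cells came from mouse brain. The samples analysed here hold no group given Rg1 without lipopolysaccharide, so an effect of Rg1 on unstimulated astrocytes cannot be read from them. No source used here gives the age or strain of the mice, or says if replicates were separate cultures, so the spread between libraries may be technical.

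Kruppel-like factors are transcription factors whose C-terminal zinc fingers bind GC-rich and CACCC sequences. Outside the zinc fingers they differ. KLF9, KLF10, KLF11, KLF13, KLF14 and KLF16 carry a short helix that recruits the SIN3A corepressor. KLF3, KLF8 and KLF12 recruit the corepressor CtBP. KLF1, KLF2, KLF4, KLF5, KLF6 and KLF7 contain activating regions and bind acetyltransferases. Many Klf genes are induced quickly by growth factors, serum, TGF-beta or flow. In astrocytes, KLF4 is known from studies of reactive and inflammatory states, and KLF6 and KLF7 are best known in the nervous system for axon growth.

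Library totals ranged from 34.2 to 41.8 M counts. Astrocyte markers were abundant. Gfap, the intermediate filament protein of astrocytes, averaged 3170 ± 540 counts per M (CPM, scaled by TMM factors) in the Rg1 plus LPS group, 2850 ± 955 CPM in the LPS group and 4020 ± 556 CPM in the control group (SD, n = 5 each). LPS replicates 2 and 3 stood apart from the other 3 LPS libraries. Their 9 astrocyte markers summed to 7680 and 10000 CPM, against 5770 to 5810 CPM in the other 3, and their microglia markers to 184 and 225 CPM, against 137 to 151 CPM. All comparisons were therefore also made without these 2 libraries. Control replicate 4 stood apart as well, with microglia markers at 243 CPM, against 135 to 153 CPM in the other 4 control libraries, and astrocyte markers at 11400 CPM, against 8890 to 9980 CPM. Rg1 plus LPS replicates 1 and 4 had the lowest astrocyte sums of their group (6280 and 6540 CPM, against 7620 to 9860 CPM). Their mural and fibroblast sums (2060 and 2830 CPM, against 3790 to 5570 CPM) and neuron sums (39.3 and 43.7 CPM, against 57.5 to 59.0 CPM) were lowest too. Microglia sums were also lowest in these 2 libraries, at 130 and 120 CPM, against 136 to 148 CPM. Endothelial and oligodendrocyte lineage markers did not set them apart. No fit left out both. In bulk RNA, fewer cells of a type and less of a transcript per cell cannot be told apart.

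Klf transcripts were mostly lower in the treated groups. With LPS, 6 members (Klf4, Klf5, Klf10, Klf11, Klf13 and Klf16) fell relative to control and 2 (Klf3 and Klf7) rose. In that comparison 23.7% of the 15362 genes tested changed, 9.82% lower and 13.8% higher (adjusted p under 0.05, edgeR's quasi-likelihood test). With Rg1 plus LPS, 7 members fell relative to LPS and 1, Klf11, rose, where 45.4% of all genes changed, 23.2% lower and 22.2% higher. Relative to control, 8 members fell with Rg1 plus LPS and none rose, as in DESeq2 and at an unadjusted p under 0.05 (0 each), where 36.9% of all genes changed, 18.1% lower and 18.8% higher. Because the members were chosen with these contrasts known, nothing is read from the counts set beside these percentages. The median log2 fold change of the 10 members was -0.62 for LPS against control. It was -0.31 for Rg1 plus LPS against LPS and -0.67 for Rg1 plus LPS against control. Over all genes tested the medians were -0.003, 0.028 and 0.011 in the same order. The 3 comparisons share libraries, since each group enters 2 of them.

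**Figure D1:**
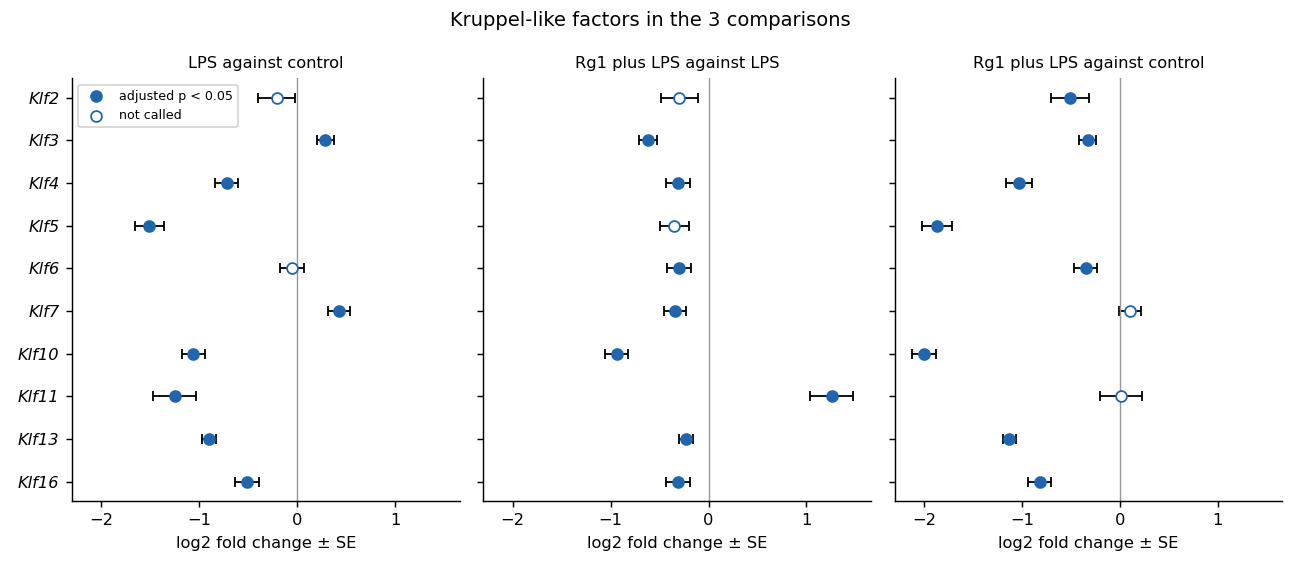
Log2 fold change (x axis) ± SE of the 10 Kruppel-like factor genes (y axis) for LPS against control (left), Rg1 plus LPS against LPS (middle) and Rg1 plus LPS against control (right); filled points passed adjusted p under 0.05 and open points did not. Klf10 lies left of 0 in all 3 panels, at -1.06, -0.94 and -2.0, while Klf11 lies at -1.25 in the first panel and at 1.26 in the second.

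Promoter sequences in RefSeq's table for GRCm38.p6 were matched for 7 of the 10 members (Klf2, Klf3, Klf4, Klf6, Klf7, Klf11 and Klf13). Klf5, Klf10 and Klf16 are named only. Each window runs from 250 bases before to 50 bases after the annotated start, on the strand of the gene. Windows of 4 members are shown because these members differed in how they moved: Klf4 and Klf13 fell under LPS, Klf3 rose, and Klf11 fell under LPS and was higher with Rg1. Capitals mark each GC box (GGGCGG, or CCGCCC on the other strand) and each CACCC box (CACCC, or GGGTG on the other strand), the sequences that Kruppel-like and Sp factors bind. Matches may overlap one another.
Klf4 promoter, chr4:55532426-55532725, minus strand: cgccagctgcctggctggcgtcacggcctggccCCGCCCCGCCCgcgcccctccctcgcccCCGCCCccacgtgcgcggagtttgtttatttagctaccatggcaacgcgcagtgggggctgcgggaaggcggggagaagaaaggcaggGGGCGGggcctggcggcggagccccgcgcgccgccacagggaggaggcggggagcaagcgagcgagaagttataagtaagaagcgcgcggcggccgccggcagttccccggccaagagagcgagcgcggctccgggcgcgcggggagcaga
Klf13 promoter, chr7:63938866-63939165, minus strand: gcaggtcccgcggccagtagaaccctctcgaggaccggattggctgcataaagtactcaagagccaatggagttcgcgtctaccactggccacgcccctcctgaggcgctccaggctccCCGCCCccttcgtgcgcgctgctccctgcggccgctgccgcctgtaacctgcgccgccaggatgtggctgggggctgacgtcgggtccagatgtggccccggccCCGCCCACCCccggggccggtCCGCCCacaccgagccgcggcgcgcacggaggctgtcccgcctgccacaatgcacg
Klf3 promoter, chr5:64803271-64803570, plus strand: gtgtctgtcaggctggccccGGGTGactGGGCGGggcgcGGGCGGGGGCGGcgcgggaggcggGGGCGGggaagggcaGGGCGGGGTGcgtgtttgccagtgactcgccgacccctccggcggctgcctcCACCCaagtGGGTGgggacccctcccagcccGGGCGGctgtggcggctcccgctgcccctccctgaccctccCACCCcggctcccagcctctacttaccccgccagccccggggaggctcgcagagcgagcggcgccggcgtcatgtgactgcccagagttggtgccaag
Klf11 promoter, chr12:24651121-24651420, plus strand: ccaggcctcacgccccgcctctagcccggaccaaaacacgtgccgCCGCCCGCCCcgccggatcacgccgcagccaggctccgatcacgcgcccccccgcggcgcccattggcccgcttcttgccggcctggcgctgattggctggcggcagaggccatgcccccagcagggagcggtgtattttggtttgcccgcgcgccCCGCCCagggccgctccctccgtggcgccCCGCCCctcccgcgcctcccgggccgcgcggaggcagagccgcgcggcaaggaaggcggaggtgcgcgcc
At least 1 GC box was found in 7 of 7 member windows, against 35.7% of all 32851 windows. It occurred 6 times in the Klf3 window, 4 times each in those of Klf4 and Klf11, and 3 times in that of Klf13. CACCC was found in 4 of 7 member windows (Klf2, Klf3, Klf7 and Klf13), against 57.5% of all windows, with 5 matches in the Klf3 window and none in those of Klf4 and Klf11. GC content was 76.7% in the Klf3 window, 74.3% in the Klf4 window, 77.7% in the Klf11 window and 72% in the Klf13 window, while the median over all windows was 52.7%. The CCAAT box, searched as CCAAT on both strands, occurred in 3 of 7 member windows (Klf6, Klf11 and Klf13), against 37.4% of all windows. A MEF2 motif was found once, 118 bases before the start of Klf2, and in 3.19% of all windows. No member window held a match to the NF-kB motif, which occurred in 8.46% of all windows, or to the full cyclic AMP response element TGACGTCA, which occurred in 1.79%. The shorter motif TGACG, on either strand, was found in 4 of 7 member windows (Klf2, Klf3, Klf4 and Klf13), against 20.8% of all windows. These matches describe letters in the windows and say nothing of binding.

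Among the SIN3A-binding members, Klf10 had the widest change in Rg1 plus LPS against control, and Klf11 in the other 2 comparisons. KLF10, first described as TGF-beta inducible early gene, is a repressor of cell growth. Klf10 had 17.4, 29.4, 22.5, 20.5 and 24.4 CPM in Rg1 plus LPS replicates 1 to 5. In LPS replicates 1 to 5 it had 42.0, 44.4, 45.3, 48.9 and 38.5 CPM, and in control replicates 1 to 5 it had 93.7, 75.5, 94.8, 103 and 91.2 CPM. No 2 of the 3 groups overlapped: every LPS library lay below every control library, and every Rg1 plus LPS library below every LPS library. The group means were 22.8 ± 4.50 CPM with Rg1 plus LPS, 43.8 ± 3.88 CPM with LPS and 91.6 ± 10.0 CPM in control (SD, n = 5 each). The log2 fold change was -1.06 ± 0.12 (SE) for LPS against control, -0.94 ± 0.12 for Rg1 plus LPS against LPS and -2.0 ± 0.12 for Rg1 plus LPS against control. These are levels 2.09-fold, 1.92-fold and 4.02-fold lower. The fall of Klf10 was among the values the genes were chosen with, so these values support nothing further. Without 1 library they ran from -1.03 to -1.13, from -0.86 to -1.03 and from -1.92 to -2.11 in the same order. Klf10 lies on chromosome 15 at 38291463 to 38300706 on the minus strand (GRCm38, GENCODE M21).

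Klf11, which encodes a second TGF-beta inducible repressor closely related to KLF10, moved differently. Its levels were 8.84, 5.98, 6.01, 6.31 and 7.34 CPM in Rg1 plus LPS libraries, 2.85, 2.44, 1.63, 4.83 and 2.63 CPM in LPS libraries, and 6.17, 7.07, 5.61, 7.87 and 7.62 CPM in control libraries. The 5 LPS libraries lay below all 10 others, and the Rg1 plus LPS and control groups overlapped. Klf11 changed by -1.25 ± 0.22 (log2, SE) with LPS relative to control and by 1.26 ± 0.22 with Rg1 plus LPS relative to LPS. The difference between Rg1 plus LPS and control, 0.01 ± 0.21, did not pass. It was the member with the fewest counts, 53 to 366 per library. Without LPS replicates 2 and 3 LPS against control gave a log2 fold change of -1.0, Rg1 plus LPS against LPS gave 1.0, and both passed.

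Set per gene length, the ratio of Klf10 to Klf11 (both in FPKM, fragments per kilobase per M counts) ran from 1.95 to 4.88 with Rg1 plus LPS, from 10.1 to 27.6 with LPS, and from 10.6 to 16.8 in control. Its medians were 3.29, 14.6 and 13.0. The ratio with Rg1 plus LPS lay below that of every LPS and control library, and the LPS and control ranges overlapped.

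Klf13 encodes a repressor that, as RFLAT-1, is also known as an activator of the chemokine gene RANTES in human T lymphocytes. Klf13 had 23.4, 26.2, 29.5, 26.6 and 28.4 CPM in Rg1 plus LPS libraries, 30.3, 31.9, 28.7, 31.4 and 34.7 CPM in LPS libraries, and 65.1, 56.5, 55.5, 56.6 and 59.9 CPM in control libraries. Both treated groups lay wholly below the control group, by -0.90 ± 0.07 (log2, SE) with LPS and by -1.13 ± 0.07 with Rg1 plus LPS. They overlapped each other, at -0.23 ± 0.07 in Rg1 plus LPS against LPS. That last call passed the threshold but not without LPS replicate 5 (-0.18), nor when libraries were scaled by their totals only (-0.12) or a trend with gene length was removed (-0.06).

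Klf16, a GC box binding repressor studied in dopaminergic brain regions, had 29.4, 24.1, 18.6, 28.0 and 24.1 CPM in Rg1 plus LPS libraries. It had 32.8, 30.4, 23.6, 34.8 and 32.2 CPM in LPS libraries and 47.0, 37.0, 44.1, 42.2 and 48.9 CPM in control libraries. Every treated library lay below the lowest control library. Klf16 changed by -0.51 ± 0.12 (log2, SE) in LPS against control and by -0.82 ± 0.12 in Rg1 plus LPS against control. The treated groups overlapped, at -0.31 ± 0.12 in Rg1 plus LPS against LPS.

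**Figure D2:**
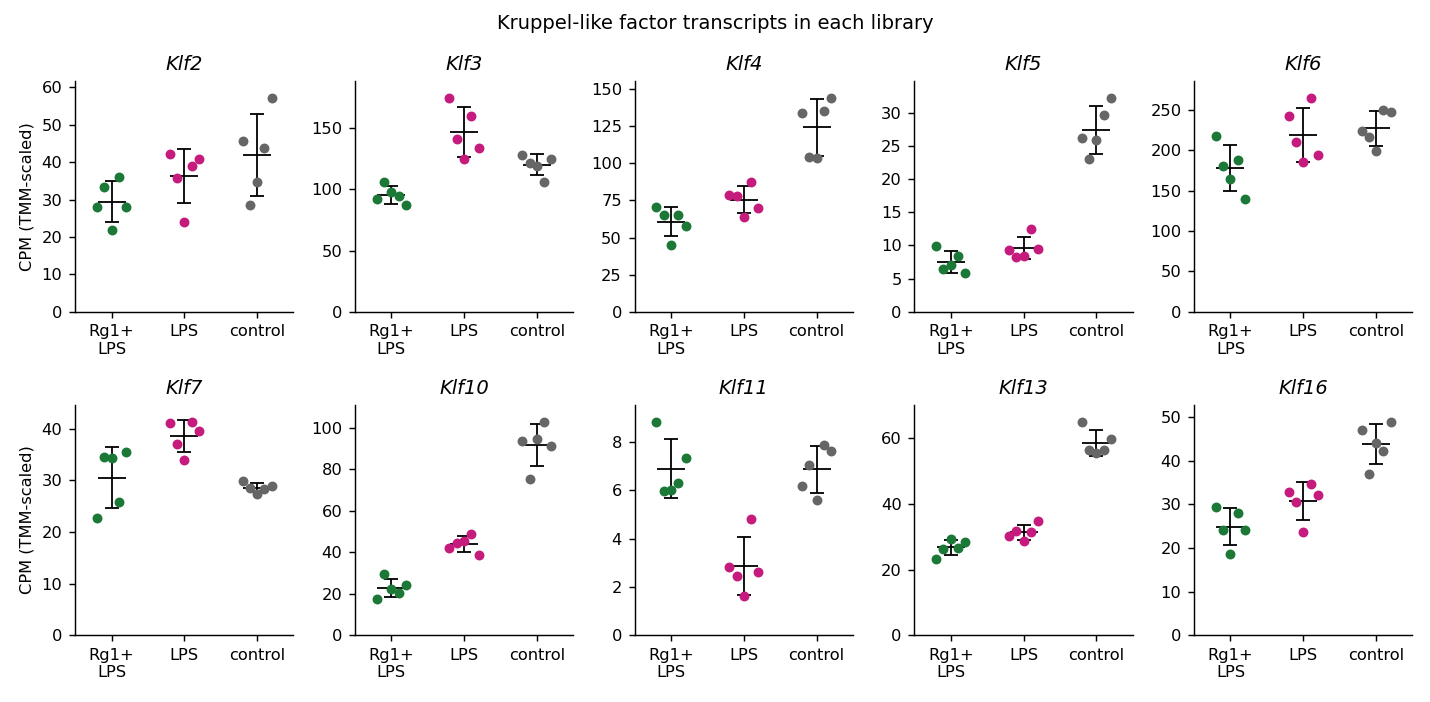
Normalised read counts (CPM, y axis from 0) of the 10 Kruppel-like factor genes in each library of the Rg1 plus LPS, LPS and control groups; points are libraries in the order of replicates 1 to 5, and bars show mean ± SD (n = 5). The 5 Klf10 points step down without overlap, with group means of 22.8 CPM in Rg1 plus LPS, 43.8 CPM in LPS and 91.6 CPM in control, while the LPS points of Klf11, at 1.63 to 4.83 CPM, lie below both other groups.

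Klf3 is the member that recruits CtBP, and it is known as a repressor in adipocytes and B lymphocytes. Klf3 stood at 91.7, 106, 97.6, 94.4 and 86.9 CPM in Rg1 plus LPS libraries, 175, 141, 125, 160 and 134 CPM in LPS libraries, and 128, 122, 119, 106 and 125 CPM in control libraries. The Rg1 plus LPS group lay wholly below the LPS group, and its difference was -0.62 ± 0.09 (log2, SE). Against control the log2 fold change was -0.33 ± 0.09, with overlapping libraries. Both calls held under all other settings and without any single library. In LPS against control Klf3 rose by 0.29 ± 0.09, with overlapping libraries. That call ended without LPS replicate 1 (0.22), LPS replicate 4 (0.26) or control replicate 4 (0.24), and when libraries were scaled by their totals only (0.25). On the opposite strand, GENCODE M21 places Gm20033 over part of Klf3, and no source used here gives the strand setting of the counting.

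Klf2, Klf4, Klf5, Klf6 and Klf7 are the members with activating regions. Klf4, one of the reprogramming factors of stem cell biology, had 70.7, 64.9, 45.0, 65.1 and 57.5 CPM in Rg1 plus LPS libraries. It had 78.6, 78.0, 63.6, 87.4 and 69.7 CPM in LPS libraries, and 134, 104, 103, 136 and 144 CPM in control libraries. The 10 treated libraries lay below all control libraries, and the treated groups overlapped. Klf4 changed by -0.72 ± 0.12 (log2, SE) in LPS against control and by -1.03 ± 0.13 in Rg1 plus LPS against control, and both calls held under every other setting and without any single library. Between Rg1 plus LPS and LPS the change was -0.31 ± 0.12. That call passed narrowly, and ended with the gene length trend removed (-0.11), with libraries scaled by their totals only (-0.21), without the filter on low counts and with only the 2 groups fitted.

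Klf5, an activator of proliferation in epithelium and smooth muscle, showed the widest fall with LPS of the 10 members. It had 9.83, 6.48, 7.09, 8.36 and 5.79 CPM in Rg1 plus LPS libraries, 9.28, 8.30, 8.45, 12.5 and 9.42 CPM in LPS libraries, and 26.2, 23.0, 25.8, 29.6 and 32.2 CPM in control libraries. The lowest control library, at 23.0 CPM, lay above the highest treated one, at 12.5 CPM. Klf5 changed by -1.51 ± 0.15 (log2, SE) in LPS against control and by -1.87 ± 0.15 in Rg1 plus LPS against control. The treated groups overlapped, and their difference of -0.35 ± 0.15 did not pass the threshold. It did pass without Rg1 plus LPS replicate 1 (-0.47), without LPS replicate 2 (-0.40), without LPS replicates 2 and 3 together (-0.48), in DESeq2 (-0.36) and with the gene length trend removed (-0.53).

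Klf2, known in endothelium as the factor induced by laminar flow, varied widely within groups. It had 27.9, 33.3, 21.7, 36.1 and 28.0 CPM in Rg1 plus LPS libraries, 42.1, 35.7, 23.9, 38.9 and 40.8 CPM in LPS libraries, and 45.6, 28.5, 34.6, 43.8 and 57.1 CPM in control libraries. All 3 groups overlapped. The coefficient of variation was 18.9% in the Rg1 plus LPS group, 20.1% in the LPS group and 26.2% in the control group. Differences of -0.21 ± 0.19 (log2, SE) in LPS against control and -0.30 ± 0.19 in Rg1 plus LPS against LPS did not pass. Klf2 fell by 0.51 ± 0.19 in Rg1 plus LPS against control. That call ended without any 1 of 8 libraries (Rg1 plus LPS replicates 1, 3 and 5, LPS replicates 2 and 4, and control replicates 1, 4 and 5), with log2 fold changes of -0.38 to -0.51. It also ended when libraries were scaled by their totals only (-0.44) and without the filter on low counts (-0.53).

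Klf6, an immediate early gene of injury and growth signals, had the highest level per length of the 10 members, as given below in FPKM. Klf6 had 217, 180, 164, 188 and 140 CPM in Rg1 plus LPS libraries, 242, 210, 185, 264 and 194 CPM in LPS libraries, and 224, 216, 199, 250 and 247 CPM in control libraries. The groups overlapped in every comparison. LPS against control gave -0.05 ± 0.12 (log2, SE), which did not pass and was 0.04 without LPS replicates 2 and 3. Klf6 fell by 0.35 ± 0.12 in Rg1 plus LPS against control, a call that ended without Rg1 plus LPS replicate 3 (-0.32) or 5 (-0.26) or control replicate 4 (-0.31) or 5 (-0.32), and when libraries were scaled by their totals only (-0.28). Its change between Rg1 plus LPS and LPS was -0.30 ± 0.12.

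Klf7, which is expressed in developing neurons and promotes axon growth, was the member that rose under LPS with no overlap. Its levels were 22.7, 34.5, 34.3, 25.8 and 35.5 CPM in Rg1 plus LPS libraries, 41.0, 37.0, 34.0, 41.3 and 39.5 CPM in LPS libraries, and 29.8, 28.6, 27.4, 28.3 and 28.8 CPM in control libraries. Klf7 rose by 0.43 ± 0.11 (log2, SE) in LPS against control, under every other setting and without any single library. With Rg1 plus LPS it was lower than with LPS by -0.34 ± 0.11, a call that ended without Rg1 plus LPS replicate 4 (-0.27), with the gene length trend removed (-0.12), with libraries scaled by their totals only (-0.23) and with only the 2 groups fitted (-0.34). Within the Rg1 plus LPS group, replicates 1 and 4 lay below the control range, and replicates 2, 3 and 5 lay above it. The difference from control, 0.10 ± 0.11, did not pass. Of the genes that GENCODE M21 places on the opposite strand of Klf7, Gm13748 had 6 counts over the 15 libraries, beside 18440 counts of Klf7.

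The widest changes in Rg1 plus LPS against LPS were the fall of Klf10 and Klf3 and the rise of Klf11. In these 3 members the groups did not overlap, a criterion that 27.5% of all genes tested met (15.1% lower and 12.4% higher). They kept their calls in each of the 9 other settings and without any single library. Klf4, Klf6, Klf7, Klf13 and Klf16, at -0.23 to -0.34, did not. When libraries were scaled by their totals only, the median of all genes was 0.14, in place of 0.028, and 3 members passed, namely Klf3, Klf10 and Klf11. In that fit 7525 of all genes changed, in place of 6976. Without 1 library, the number of members that passed ranged from 5 to 9, against 8 with all libraries. Over all genes the number changed then ranged from 6290 to 7327. Klf4 kept its call only without Rg1 plus LPS replicate 1, LPS replicate 3, control replicate 2 or control replicate 3, with log2 fold changes of -0.21 to -0.38 over all 15 fits. Klf6 kept its call only without Rg1 plus LPS replicate 1, LPS replicate 3, LPS replicate 5 or control replicate 3 (-0.20 to -0.38). Klf16 kept its call only without Rg1 plus LPS replicate 1, Rg1 plus LPS replicate 4, LPS replicate 3 or control replicate 2 (-0.20 to -0.38). Against control, 5 members (Klf4, Klf5, Klf10, Klf13 and Klf16) lay wholly below the control group with Rg1 plus LPS, where 26.2% of all genes had no overlap, 13% lower and 13.2% higher. With LPS, 6 members lay wholly below control and 1, Klf7, wholly above it, where 20.4% of all genes had no overlap (7.64% lower and 12.8% higher).

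**Figure D3:**
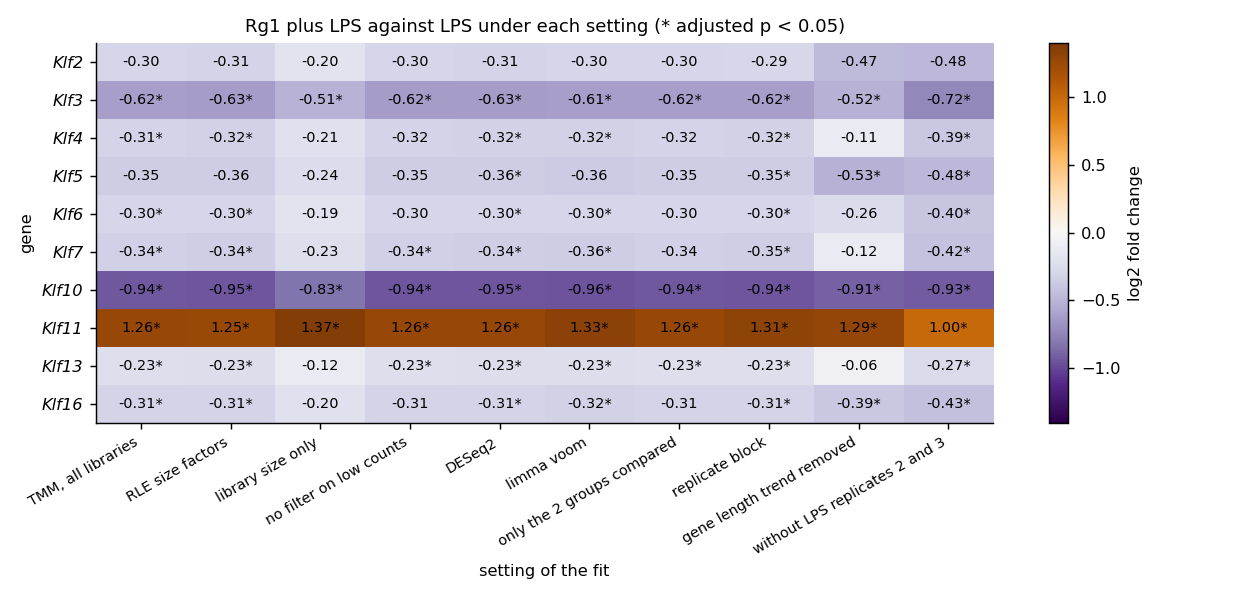
Log2 fold change in Rg1 plus LPS against LPS (colour and printed value) of the 10 genes (y axis) under the main fit and 9 other settings (x axis); an asterisk marks adjusted p under 0.05. Klf3, Klf10 and Klf11 carry an asterisk in all columns, and with libraries scaled by their totals only no other gene does.

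Levels between genes can be compared only per length, as FPKM. Klf6 led in all 3 groups, at 44.0 ± 7.39 FPKM with Rg1 plus LPS, 50.2 ± 8.37 FPKM with LPS and 53.5 ± 4.64 FPKM in control (SD, n = 5 each), above the highest library of the next member. Klf11 was last in each group, at 1.80 ± 0.318 FPKM with Rg1 plus LPS, 0.70 ± 0.30 FPKM with LPS and 1.71 ± 0.231 FPKM in control. In control, Klf2 (22.9 FPKM), Klf10 (22.7 FPKM) and Klf3 (22.7 FPKM) followed Klf6 with overlapping ranges, then Klf16 (16.4 FPKM), Klf4 (16.3 FPKM) and Klf5 (15.7 FPKM), which overlapped too. Klf13 (9.12 FPKM) and Klf7 (3.47 FPKM) each stood apart from their neighbours. With LPS, Klf3 followed at 26.9 FPKM and then Klf2 at 19.3 FPKM, and the ranges of Klf2, Klf16 (11.2 FPKM), Klf10 (10.5 FPKM) and Klf4 (9.65 FPKM) each overlapped the next. With Rg1 plus LPS, Klf3 (18.9 FPKM) and Klf2 (16.9 FPKM) overlapped, and from Klf16 (9.75 FPKM) down through Klf4 (8.36), Klf10 (5.92), Klf5 (4.53), Klf13 (4.37) and Klf7 (3.88 FPKM) each range overlapped the next.

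This order depends on the gene lengths behind the deposited FPKM. The length for Klf4 was 7553 bases, 2.48 times the 3049 exon bases of GENCODE M21, and that for Klf5 was 1728 bases, 0.33 of its 5201 exon bases. Klf3, with 5267 against 11243 bases, stood at 0.47, and the other 7 members at 0.85 to 1.01. With GENCODE lengths Klf4 ranked second in each group, at 20.7 ± 3.36 per kilobase per M with Rg1 plus LPS, 23.9 ± 3.23 with LPS and 40.5 ± 5.85 in control. Klf5 then had 5.23 ± 0.641 per kilobase per M in control, and with Rg1 plus LPS it ranked last, at 1.51 ± 0.330, below Klf11 at 1.65 ± 0.292. The length used as divisor cancels in the fold change of a gene. With the gene length trend removed, however, fold changes used the deposited lengths, also for Klf3, Klf4 and Klf5.

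Summed over all 16 Klf symbols, transcripts per length came to 137 ± 11.4 FPKM with Rg1 plus LPS, 157 ± 20.8 FPKM with LPS and 213 ± 14.4 FPKM in control (SD, n = 5 each). Every treated library lay below the control range of 197 to 229 FPKM, and the treated groups overlapped at 121 to 148 FPKM with Rg1 plus LPS and 132 to 185 FPKM with LPS. The 10 members made up 86.0% of this sum with Rg1 plus LPS, 91.4% with LPS and 86.4% in control. Klf6 supplied 31.8 ± 3.09% with Rg1 plus LPS, 31.9 ± 1.19% with LPS and 25.1 ± 1.09% in control. Klf10 supplied 4.34 ± 0.938% with Rg1 plus LPS, 6.79 ± 0.839% with LPS and 10.6 ± 1.02% in control. The share of Klf3 was 13.8 ± 1.11% with Rg1 plus LPS, 17.2 ± 1.01% with LPS and 10.7 ± 1.13% in control. Sums and shares rest on the deposited lengths. FPKM and values per kilobase per M use library totals without the TMM factors that scale CPM. Those factors were 1.02 to 1.06 with Rg1 plus LPS, 0.952 to 0.988 with LPS and 0.980 to 1.01 in control. Within the 10 members alone, Klf3 held 18.8% of the sum with LPS and 12.4% in control with deposited lengths, and 9.28% and 5.91% with GENCODE lengths. Klf4 held 6.75% with LPS and 8.82% in control with deposited lengths, and 17.6% and 22.3% with GENCODE lengths. The members summed to 114 ± 12.2 per kilobase per M with Rg1 plus LPS, 136 ± 18.6 with LPS and 181 ± 18.0 in control with GENCODE lengths, and the LPS and control ranges (111 to 160 and 159 to 201) then touched.

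**Figure D4:**
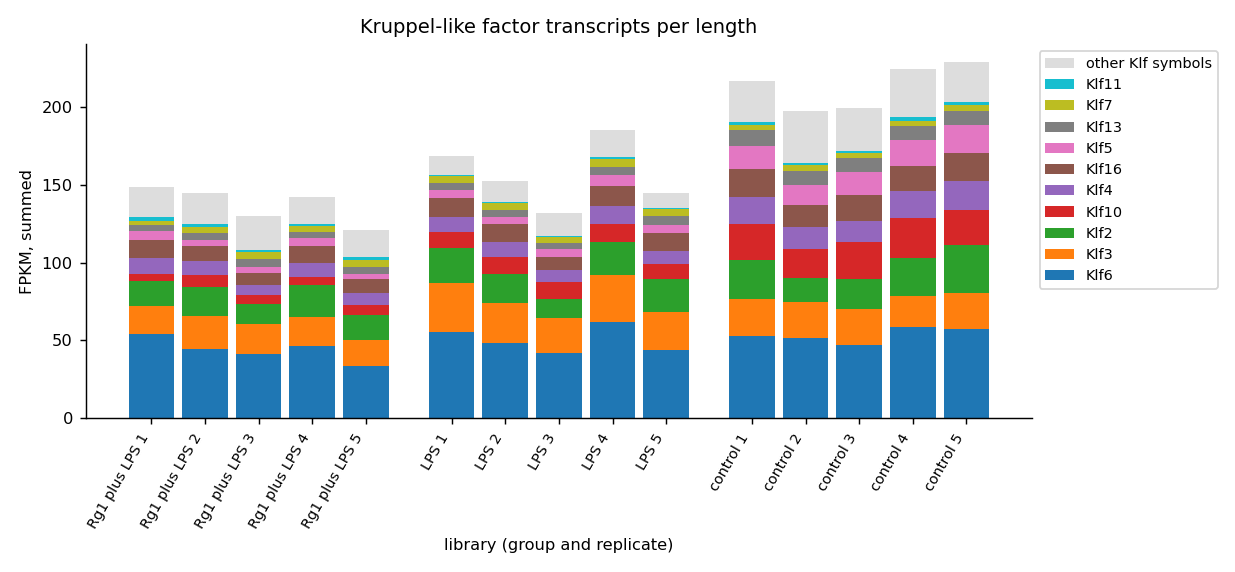
Summed FPKM of the Klf symbols (y axis from 0) in each library (x axis), with the 10 members in colour and the other Klf symbols in grey. The control columns reach 197 to 229 FPKM, above all LPS columns (132 to 185 FPKM) and all Rg1 plus LPS columns (121 to 148 FPKM).

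Replicates of a group differed together for several members. LPS replicate 3 was the lowest LPS library for 8 of the 10 members and LPS replicate 4 the highest for 7. Without LPS replicate 3, no member gained or lost a call in any of the 3 comparisons. Without LPS replicate 4, 7 members passed between LPS and control. In the Rg1 plus LPS libraries, 5 then passed against LPS and 7 against control, in place of 8 in each comparison. Over all genes, 3078, 6432 and 5683 changed in these 3 comparisons, in place of 3635, 6976 and 5671. The calls that ended were those of Klf3 in the first (0.26), of Klf4 (-0.26), Klf6 (-0.22) and Klf16 (-0.26) in the second and of Klf2 in the last (-0.51). Without control replicate 4 the numbers of members were 7, 5 and 6, and those of all genes 2879, 6912 and 5072. The same calls ended (Klf3 at 0.24, Klf4 at -0.30, Klf6 at -0.28, Klf16 at -0.29 and Klf2 at -0.49), with that of Klf6 against control (-0.31).

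Other genes of the family were given for context. Klf9, a SIN3A-binding factor and glucocorticoid target, averaged 73.2 ± 6.38 CPM with Rg1 plus LPS, 58.8 ± 12.6 CPM with LPS and 125 ± 12.4 CPM in control. It fell in LPS against control (-1.08 ± 0.12, adjusted p = 5.37e-06) and with Rg1 plus LPS against control (-0.77 ± 0.12, adjusted p = 0.000147). Its 0.32 ± 0.12 (adjusted p = 0.0415) in Rg1 plus LPS against LPS lost the threshold in 10 other fits, 7 of them with 1 library left out. Klf15, also a glucocorticoid target, averaged 12.0 ± 2.58 CPM with Rg1 plus LPS, 2.20 ± 0.845 CPM with LPS and 4.71 ± 1.27 CPM in control. It rose in Rg1 plus LPS against LPS (2.46 ± 0.25, adjusted p = 9.98e-07) and with Rg1 plus LPS against control (1.35 ± 0.24, adjusted p = 0.000377), and fell in LPS against control (-1.11 ± 0.25, adjusted p = 0.00413). Klf12, a CtBP-binding repressor, averaged 8.50 ± 1.10 CPM with Rg1 plus LPS, 10.7 ± 0.297 CPM with LPS and 11.6 ± 1.55 CPM in control. It was lower with Rg1 plus LPS against LPS (-0.33 ± 0.10, adjusted p = 0.016), a call that ended in 5 other fits. Against control Klf12 was lower too (-0.45 ± 0.10, adjusted p = 0.00286), which ended only with the gene length trend removed. LPS against control (-0.12 ± 0.10) did not pass.

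Transcripts of known partners, regulators and targets of Kruppel-like factors were counted by list. Among all genes tested, 13.8% were called higher and 9.82% lower with LPS against control. For Rg1 plus LPS, 22.2% were called higher and 23.2% lower against LPS, and 18.8% and 18.1% against control. Among 11 corepressor genes, 4 rose and none fell in LPS against control (median log2 fold change 0.10), and 7 did not pass. Against LPS, 1 rose and 5 fell with Rg1 plus LPS (-0.25), and against control 2 rose and 3 fell (-0.01). With libraries scaled by their totals only, 3 rose and 1 fell in LPS against control (0.05). On that scale 3 rose and 3 fell with Rg1 plus LPS against LPS (-0.14), and 4 rose and 2 fell against control (0.06). Sin3a, the scaffold that KLF10, KLF11, KLF13 and KLF16 bind, averaged 31.6 ± 2.64 CPM with Rg1 plus LPS, 61.4 ± 4.98 CPM with LPS and 33.2 ± 1.69 CPM in control. All 5 LPS libraries lay above all others. Sin3a rose by 0.89 ± 0.07 in LPS against control (adjusted p = 7.92e-08) and changed by -0.96 ± 0.07 in Rg1 plus LPS against LPS (adjusted p = 1.79e-08). Ctbp2, a partner of KLF3, rose in LPS against control (55.0 ± 2.32 CPM with LPS and 44.2 ± 1.83 CPM in control, 0.32 ± 0.06, adjusted p = 0.00171). Sap30, a subunit of the SIN3 complex, was higher in Rg1 plus LPS against LPS (0.81 ± 0.13, adjusted p = 0.000107).

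Of 4 acetyltransferase genes, 1 rose in LPS against control (median 0.24), 1 rose and 1 fell in Rg1 plus LPS against LPS (-0.13), and 1 rose and 1 fell in Rg1 plus LPS against control (-0.14). Kat2a, which encodes GCN5, was higher in Rg1 plus LPS against control (49.2 ± 4.41 CPM with Rg1 plus LPS and 34.3 ± 1.60 CPM in control, 0.52 ± 0.07, adjusted p = 2.5e-05). Of 10 ubiquitin ligase genes linked to the turnover of KLF proteins, 1 rose and 2 fell in LPS against control (median 0.04). With Rg1 plus LPS, 2 rose and 2 fell against LPS (-0.08), and 2 rose and 2 fell against control (-0.11). Smurf1 rose in LPS against control (0.50 ± 0.13, adjusted p = 0.0121) and was lower in Rg1 plus LPS against LPS (-0.74 ± 0.13, adjusted p = 0.000276). It averaged 75.8 ± 17.4 CPM with Rg1 plus LPS, 127 ± 15.8 CPM with LPS and 90.0 ± 9.39 CPM in control.

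TGF-beta signalling is a known inducer of Klf10 and Klf11. Of 16 genes of that pathway, 3 rose and 2 fell in LPS against control (median 0.01). With Rg1 plus LPS, none rose and 11 fell against LPS (-0.49), and 1 rose and 11 fell against control (-0.54). When libraries were scaled by their totals only, 1 rose and 9 fell against LPS (-0.38), and 1 rose and 10 fell against control (-0.47). Smad3, which carries the signal to the nucleus, averaged 55.8 ± 4.62 CPM with Rg1 plus LPS, 156 ± 32.1 CPM with LPS and 108 ± 7.35 CPM in control, and fell by 1.48 ± 0.11 in Rg1 plus LPS against LPS (adjusted p = 1.9e-08). Skil, which encodes the Smad repressor SnoN, averaged 43.1 ± 7.92 CPM with Rg1 plus LPS, 115 ± 13.2 CPM with LPS and 64.3 ± 2.46 CPM in control. It rose in LPS against control (0.84 ± 0.11, adjusted p = 1.81e-05) and fell in Rg1 plus LPS against LPS (-1.42 ± 0.11, adjusted p = 2.65e-08). Tgfbr1, a receptor of TGF-beta, averaged 10.3 ± 1.33 CPM with Rg1 plus LPS, 14.0 ± 1.32 CPM with LPS and 21.7 ± 2.15 CPM in control. It fell in LPS against control (-0.63 ± 0.10, adjusted p = 0.000205) and in Rg1 plus LPS against control (-1.08 ± 0.10, adjusted p = 8.69e-07).

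The kinase ERK5 and MEF2 factors are known inducers of Klf2 and Klf4 in endothelium. Among 11 tested genes of that pathway and the deacetylases that restrain it, 1 rose and 2 fell in LPS against control (median -0.05). None rose and 5 fell in Rg1 plus LPS against LPS (-0.14), and 1 rose and 7 fell in Rg1 plus LPS against control (-0.44). When libraries were scaled by their totals only, 1 rose and 5 fell against LPS (-0.03), and 2 rose and 6 fell against control (-0.37). Mef2c fell in LPS against control (6.56 ± 1.01 CPM with LPS and 19.8 ± 2.51 CPM in control, -1.59 ± 0.23, adjusted p = 9.87e-05). Mef2a fell in Rg1 plus LPS against LPS (57.3 ± 8.02 CPM with Rg1 plus LPS and 113 ± 14.0 CPM with LPS, -0.98 ± 0.10, adjusted p = 7.55e-07).

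Of 6 genes known as KLF2 or KLF4 targets in endothelium, 1 rose and 2 fell in LPS against control (median -0.41), 1 rose and 1 fell in Rg1 plus LPS against LPS (-0.38), and none rose and 2 fell in Rg1 plus LPS against control (-0.25). Cdkn1a, which encodes the cell cycle inhibitor p21 and is also a KLF6 target, averaged 440 ± 37.9 CPM with Rg1 plus LPS, 903 ± 123 CPM with LPS and 509 ± 51.4 CPM in control. It rose by 0.83 ± 0.10 in LPS against control (adjusted p = 6.81e-06) and changed by -1.04 ± 0.10 in Rg1 plus LPS against LPS (adjusted p = 2.76e-07). Of 5 tested genes known as KLF6 or KLF7 targets or axon growth genes, 1 rose and 1 fell in LPS against control (median -0.30). In Rg1 plus LPS against LPS 1 rose and 1 fell (0.06), and none passed in Rg1 plus LPS against control (-0.21). Cdkn1a stands in both lists. In each it was the 1 that rose in LPS against control and the 1 that fell in Rg1 plus LPS against LPS. Nos3, the KLF2 or KLF4 target that rose in Rg1 plus LPS against LPS, averaged only 0.902 CPM with Rg1 plus LPS and 0.502 CPM with LPS. Among 7 tested genes of the related Sp family, which bind the same GC box, none rose in any comparison, in edgeR, in DESeq2 or at an unadjusted p under 0.05 (0 each). With LPS 2 fell relative to control (median -0.16). With Rg1 plus LPS 3 fell relative to LPS (-0.15) and 4 relative to control (-0.60). Sp1, the ubiquitous member, averaged 53.8 ± 4.53 CPM with Rg1 plus LPS, 73.7 ± 1.97 CPM with LPS and 87.5 ± 5.62 CPM in control. It fell in Rg1 plus LPS against LPS (-0.45 ± 0.06, adjusted p = 2.01e-05) and in LPS against control (-0.25 ± 0.06, adjusted p = 0.00797).

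Genes with the most similar pattern were looked up over the 15 libraries, as Pearson r of log2 CPM among 10647 genes of at least 5 CPM. The libraries fall into 3 groups, so these r describe likeness and are not tests. Klf10 was most like Slc26a2 (r = 0.985), Irx3 (0.983), Egr3 (0.981), Pmaip1 (0.976) and Arhgap29 (0.976). Egr3, an immediate early zinc finger gene, averaged 11.3 CPM with Rg1 plus LPS, 27.1 CPM with LPS and 71.0 CPM in control. Klf4 was most like Fam110c (r = 0.963), Klf16 (0.96), Dusp5 (0.957), Slc20a1 (0.953) and Ctdp1 (0.95). Dusp5, a phosphatase gene induced by ERK, averaged 18.3 CPM with Rg1 plus LPS, 25.1 CPM with LPS and 99.8 CPM in control. For Klf6 the closest were Fbxo30 (r = 0.948), Tmem87b (0.937), Wasl (0.936), Pum2 (0.936) and Bzw1 (0.930). Those for Klf2 were Twist2 (r = 0.923), Wnt2 (0.903), Vamp3 (0.895), Ier5 (0.891) and Capn2 (0.878).

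Markers of cell types moved between the groups as well. Of 9 astrocyte markers, none rose and 5 fell in LPS against control, 4 rose and 1 fell in Rg1 plus LPS against LPS, and none rose and 4 fell in Rg1 plus LPS against control. Their sum ran from 6280 to 9860 CPM with Rg1 plus LPS, 5770 to 10000 CPM with LPS and 8890 to 11400 CPM in control. Sox9, an astrocyte transcription factor, averaged 123 ± 22.5 CPM with Rg1 plus LPS, 70.1 ± 12.0 CPM with LPS and 193 ± 10.5 CPM in control. Of 15 tested microglia markers, none passed in LPS against control, 8 fell in Rg1 plus LPS against LPS and 6 fell in Rg1 plus LPS against control. The 16 present in the data summed to 120 to 148 CPM with Rg1 plus LPS, 137 to 225 CPM with LPS and 135 to 243 CPM in control, with Siglech at 0 in control and P2ry12 at 0.470, 0.201 and 0.385 CPM in the same order. Tmem119, another gene of the list, was at 36.0 ± 15.8 CPM with Rg1 plus LPS, 28.4 ± 6.04 CPM with LPS and 30.7 ± 4.69 CPM in control. The tested list as a whole went lower with Rg1 plus LPS, at a median log2 fold change of -1.42 against LPS and -1.14 against control. No marker was called higher in either. Itgam averaged 0.549 ± 0.199 CPM with Rg1 plus LPS and 3.65 ± 2.1 CPM with LPS, and Ctss 2.79 ± 0.923 and 11.8 ± 3.65 CPM.

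The 7 endothelial markers, 4 of them tested, summed to 92.7 to 109 CPM with Rg1 plus LPS, 166 to 193 CPM with LPS and 131 to 158 CPM in control. Most of this was Cdh5 (86.8 ± 6.03, 141 ± 16.2 and 121 ± 10.3 CPM in the same order). Pecam1 was at 0.183, 0.0790 and 0.0643 CPM, and Cldn5, a defining marker of brain endothelium, had 2 counts with Rg1 plus LPS, 3 counts with LPS and 0 in control. Of the 4 tested, 1 rose in LPS against control, 2 fell in Rg1 plus LPS against LPS and 3 fell in Rg1 plus LPS against control. Markers of mural cells and fibroblasts (7) summed to 2060 to 5570 CPM with Rg1 plus LPS, 4160 to 6670 CPM with LPS and 4190 to 4970 CPM in control, and 1, Pdgfrb, fell in Rg1 plus LPS against LPS. Of 5 tested oligodendrocyte lineage markers, 1 fell in LPS against control, 1 rose and 3 fell in Rg1 plus LPS against LPS, and 1 rose and 2 fell in Rg1 plus LPS against control. Their list summed to 261 to 333 CPM with Rg1 plus LPS, 273 to 315 CPM with LPS and 263 to 333 CPM in control. Of 4 tested neuron markers, none passed in LPS against control, 1 rose in Rg1 plus LPS against LPS, and 1 rose and 1 fell in Rg1 plus LPS against control, at sums of 39.3 to 59.0, 41.0 to 47.2 and 39.6 to 47.0 CPM in the same order. Where no gene of a list passed in edgeR's test, DESeq2 and an unadjusted p under 0.05 gave these counts. For microglia and for neuron markers in LPS against control both gave 0. For mural and fibroblast markers in LPS against control each gave 1 higher, and in Rg1 plus LPS against control DESeq2 gave 1 lower and the unadjusted p gave 2. For the KLF6 and KLF7 targets in Rg1 plus LPS against control DESeq2 gave 0 and the unadjusted p gave 2 lower. The part of these cell types in the Klf levels was not tested.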

How the data were processed

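Polyadenylated RNA of 15 libraries was extracted with TRIzol and made into libraries with the VAHTS Universal V6 kit, per the labels' protocols. The authors deposited 1 set of raw counts by gene symbol and 1 of FPKM values per library. Gene lengths were worked out from the deposited counts and FPKM, using values above 0. The length of a gene in a library differed from its median over libraries by at most 7.22e-10, as a relative deviation. In each set of FPKM values 37 symbols had no match among the counts and were left out. Builds named in the submitters' processing notes are GRCm38 and mm10. No aligner, counter, annotation or strand setting is given in the sources used here. The count data named a gene in each row, and no 2 libraries held identical values.

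The fits used edgeR 4.0.16 and limma 3.58.1 in R 4.3.3. The filter filterByExpr, given the groups, left 15362 genes, and TMM factors scaled the libraries. All 15 libraries entered a robust quasi-likelihood fit with group as the only term. Tests were two-sided, with Benjamini-Hochberg adjustment over the whole table and a threshold of 0.05. Log2 fold changes are given ± SE, and CPM and FPKM as mean ± SD. Alternatives were RLE scaling, library totals only, no filter, DESeq2 1.42.0, limma voom, only the groups compared, a replicate block, removal of a gene length trend, LPS replicates 2 and 3 left out, and each library left out in turn. The gene length trend was fitted on the lengths behind the deposited FPKM. Library totals were 34.2 to 41.8 M counts. Klf11, the member with the fewest counts, had 53 to 366 per library and a coefficient of variation of 17.7% with Rg1 plus LPS, 41.2% with LPS and 14.0% in control.

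The members and the gene lists were chosen with earlier results of these data known. All members are named, and of each list up to 2 tested genes that rose and 2 that fell were eligible for naming, in order of adjusted p. Genes of like pattern were the 5 with the highest Pearson r for each of 4 members. The lists covered other Klf genes, the Sp family, corepressors, acetyltransferases, ubiquitin ligases, TGF-beta signalling, ERK5 and MEF2, KLF targets and markers of 6 cell types. The treatment field of the Rg1 plus LPS group runs from Rg1 to Rg5, and the titles were followed. The methods were tested on simulated data. Gene positions are from GENCODE M21, and promoter sequences from RefSeq (GRCm38.p6).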

Additional observations from a re-analysis of the deposited data

Results flagged for a closer look

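The Klf5 level of LPS replicate 4, at 12.5 CPM, stood apart from the other 4 LPS libraries, which had 8.30 to 9.42 CPM. The gap to its nearest neighbour took up 0.731 of the range of the group, above the Dixon limit of 0.71 for 5 samples. Of 30 sets of a member and a group that were examined this way, it was the 1 that passed, and chance alone passes about 1 in 20. The same library was the highest LPS library for 7 of the 10 members. All 5 LPS libraries lay below the lowest control library of Klf5, 23.0 CPM.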

How the results depend on the processing

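Of the 10 members, 8 passed in Rg1 plus LPS against LPS. That count was 3 with libraries scaled by their totals only, where 7525 genes changed in all, against 6976 in the main fit. It was 4 when only the 2 groups compared were fitted (5997 genes in all). Without a filter on low counts (6616) and with the gene length trend removed (6022) it was 5. It stayed 8 with RLE scaling (6953) and limma voom (7047). In DESeq2 (7333), with a replicate block (7254) and without LPS replicates 2 and 3 (6588) it was 9. Without 1 library it was 5 to 9. In LPS against control it was 7 to 8 without 1 library and in Rg1 plus LPS against control 6 to 8. Over all genes, 3635, 6976 and 5671 changed in LPS against control, Rg1 plus LPS against LPS and Rg1 plus LPS against control. Without 1 library these counts were 2847 to 4440, 6290 to 7327 and 4903 to 5963. Higher calls made up 58.5%, 48.9% and 50.9% of them, against 45.9%, 65.0% and 63.9% when libraries were scaled by their totals only. The log2 fold changes that turned sign were small. Klf6 in LPS against control was -0.05 and became 0.0393 without LPS replicates 2 and 3. Klf11 in Rg1 plus LPS against control was 0.01 and became -0.00567 with RLE scaling, -0.0123 without a filter, -0.00582 in DESeq2, -0.00636 without LPS replicates 2 and 3, and -0.0996 to 0.0663 without 1 library. The cause of these shifts was not tested.

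With the replicate number as a block, 4113, 7254 and 6027 genes changed in the 3 comparisons, and Klf5 passed in Rg1 plus LPS against LPS (-0.35). No label says that a number marks shared material, and the pairing was not used because not every same-numbered pair correlated above 0.1. Deviations of same-numbered libraries correlated at -0.222 to 0.155 between LPS and control, and at -0.218 to 0.136 between Rg1 plus LPS and control. Between Rg1 plus LPS and LPS they correlated at 0.05 to 0.424, 4 of 5 pairs lay above 0.1, and 3 of 5 libraries correlated best with their own number, a hint of pairing from the data. Lengths from GENCODE M21 were tried after seeing the data. Of the 65 calls eligible for naming outside the members and the cell type markers, 47 held in all fits and 18 did not.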
